A study of Mus musculus with 3 samples.

Results

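Antisense non-coding transcripts are RNAs transcribed from the strand opposite another gene. The 921 transcripts described here carry the annotation class antisense and belong to 529 genes. They were chosen by their expected read count, 20 or more in each of 3 libraries. They were taken from 4511 antisense transcripts of 3091 genes, after Kcnq1ot1, Airn, Tsix, Gas5 and genes named Snhg were left out by name (6 genes, 3 of which passed the count minimum). The count minimum kept 17.1% of the 3085 remaining antisense genes and 23.2% of all 55536 annotated genes. Of the 529, 487 are typed antisense at the gene level and 42 are typed processed transcript.

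The libraries are total RNA-seq, made after removal of ribosomal RNA, from the chromatin fraction of C57BL/6J mouse bone marrow-derived macrophages, a primary cell type grown from marrow precursors. The cells were treated with lipid A at 100 ng/ml for 15 min. Lipid A, the membrane anchor of bacterial lipopolysaccharide, activates the receptor TLR4. All 3 libraries belong to this single group, so no unstimulated level is given, and no statement below is about a response to lipid A. Age and sex were not collected, and the 3 replicates, numbered as biological replicates, carry 1 donor label and separate biosample labels. Nothing in the labels says that they came from separate animals, so each SD measures only the spread between these samples, which may be technical.

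Antisense genes can share a start region with their sense partner, lie inside it or run into its 3' end. Some are known to act on the chromatin or the transcription of the neighbouring gene, others on splicing or on the stability of the sense RNA, and for most no function is known. Many are retained in the nucleus, and the chromatin fraction also holds nascent, unspliced RNA of the sense gene.

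Depth was 10774225, 21298242 and 14308209 expected counts on annotated genes in replicates 1, 2 and 3. All 10 macrophage markers were at 1 TPM (a level corrected for gene length and library size) or more in each library, with a summed TPM of 526 to 938. None of 8 neutrophil and none of 6 B cell markers reached 1 TPM in each library, and 1 of 8 T and NK cell and 1 of 6 stromal markers did. Elane, Mpo, Cd3e, Cd3g, Ncr1, Cd79b and Pax5 had 0 counts in each library. The median TPM of protein-coding genes that passed the count minimum was 9.27, 6.36 and 10.75 in replicates 1 to 3, lowest in replicate 2, so libraries are compared below on CPM, counts relative to the library total, scaled by the trimmed mean of M-values (TMM).

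Sequences are shown for members whose levels or partners the results below turn on. F630028O10Rik, second among the members in mean TPM, holds in an exon both mature strands of miR-223, a microRNA known for its abundance in myeloid cells. The sequences are from RefSeq (GRCm38.p6), and capitals mark the seed, bases 2 to 8, the stretch that pairs with target RNAs.
miR-223-5p: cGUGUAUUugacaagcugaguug
miR-223-3p: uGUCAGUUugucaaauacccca
The 2 seeds differ. The mature RNAs lie at chrX:96242842-96242864 and chrX:96242884-96242905 on the plus strand.

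RefSeq promoter windows, from 250 bases before to 50 bases after the start, were found within 100 bases of an annotated start for 160 of the 529 genes. 5 of them are printed to set windows with many CpG dinucleotides beside windows with few. Capitals mark each CpG.
F630028O10Rik, chrX:96239676-96239975, plus strand: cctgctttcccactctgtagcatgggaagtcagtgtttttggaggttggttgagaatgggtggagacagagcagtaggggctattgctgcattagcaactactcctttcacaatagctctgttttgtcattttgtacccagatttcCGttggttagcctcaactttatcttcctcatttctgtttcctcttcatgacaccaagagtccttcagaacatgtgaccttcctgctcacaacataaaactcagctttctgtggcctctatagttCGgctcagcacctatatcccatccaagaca
Gm26740, chr10:22302789-22303088, minus strand: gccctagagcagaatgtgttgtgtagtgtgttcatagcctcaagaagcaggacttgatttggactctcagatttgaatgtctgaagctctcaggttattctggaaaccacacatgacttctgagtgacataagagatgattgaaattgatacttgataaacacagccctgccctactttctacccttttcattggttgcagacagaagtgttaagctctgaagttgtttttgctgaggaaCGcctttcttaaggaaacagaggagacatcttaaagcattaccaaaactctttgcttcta
Tug1, chr11:3648765-3649064, minus strand: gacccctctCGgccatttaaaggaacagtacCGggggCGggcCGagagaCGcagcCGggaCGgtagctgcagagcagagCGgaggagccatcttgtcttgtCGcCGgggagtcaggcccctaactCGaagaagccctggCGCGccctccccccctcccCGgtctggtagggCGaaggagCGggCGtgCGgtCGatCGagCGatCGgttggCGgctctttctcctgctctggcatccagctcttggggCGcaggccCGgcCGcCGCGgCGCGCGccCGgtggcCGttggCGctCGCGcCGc
B230319C09Rik, chr6:83441505-83441804, plus strand: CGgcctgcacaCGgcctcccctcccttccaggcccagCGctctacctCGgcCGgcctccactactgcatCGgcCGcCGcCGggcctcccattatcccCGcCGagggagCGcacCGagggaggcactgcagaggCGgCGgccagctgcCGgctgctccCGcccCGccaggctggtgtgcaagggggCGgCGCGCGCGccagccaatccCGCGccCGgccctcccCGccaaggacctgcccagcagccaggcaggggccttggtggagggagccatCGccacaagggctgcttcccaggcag
Gm26885, chr17:29491495-29491794, minus strand: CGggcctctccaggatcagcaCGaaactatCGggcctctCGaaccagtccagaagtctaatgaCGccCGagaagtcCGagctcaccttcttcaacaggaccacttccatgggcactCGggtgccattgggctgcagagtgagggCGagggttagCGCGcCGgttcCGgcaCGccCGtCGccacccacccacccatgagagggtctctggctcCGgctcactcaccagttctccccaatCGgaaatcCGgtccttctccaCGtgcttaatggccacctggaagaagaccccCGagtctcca
The windows of F630028O10Rik and Gm26740 hold 2 and 1 CpG dinucleotides, and those of Tug1, B230319C09Rik and Gm26885 hold 37, 28 and 21. Gm26885 overlaps the 5' end of Pim1, a kinase gene, on the other strand.

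Among the 160 windows, 61 (38.1%) were CpG-rich, meaning an observed-to-expected CpG ratio above 0.6 and a GC share above 0.5, against 33.3% of all 32851 windows in the RefSeq table and 67.0% of the 10407 windows of protein-coding genes that passed the count minimum. The share varied with position. CpG-rich windows belonged to 11 of 15 members that start within 1 kb of their partner's start and to 34 of 49 that overlap their partner at the 3' ends. They belonged to 9 of 72 members that lie within their partner. Median TPM was 4, 1.71 and 4.05 in replicates 1 to 3 for members with a CpG-rich window and 4.23, 1.76 and 3.8 for the other members with a window. The 2 groups were close in each library.

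Short motifs were searched on both strands of the 300-base windows. GGGCGG, the GC box, was found in 60 of 160 member windows (37.5%), against 35.7% of all windows and 62.8% of those of expressed protein-coding genes. For the other motifs the share of member windows is followed by that of all windows and that of expressed protein-coding genes. CCAAT was found in 53 (33.1%, against 37.4 and 37.4%) and TATAAA in 11 (6.88%, against 13.6 and 6.93%), a share close to that of expressed protein-coding genes. The AP-1 motif TGANTCA was found in 12 (7.50%, against 7.81 and 4.95%) and the kB motif in 9 (5.62%, against 4.51 and 5.17%). GAGGAAGT, a core of the macrophage factor PU.1, was found in 1 window (0.625%, against 3.20 and 3.33%) and CCGGAAGT in 4 (2.50%, against 3.89 and 8.88%). TGACGTCA was found in 3 (1.88%, against 1.79 and 3.19%) and the serum response element in 2 (1.25%, against 1.63 and 1.25%). A match to these letters is not a binding site. In the printed windows, B230319C09Rik has GGGCGG at 94 and 68 bases before the start and CCAAT at 50, Tug1 has GGGCGG at 216, Gm26740 has CCAAT at 60 and Gm26885 has CCAAT at 126 and 17.

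The members as a whole took 0.826, 0.438 and 0.636% of the expected counts on annotated genes in replicates 1, 2 and 3 (0.633 ± 0.194%, SD, n = 3). That is 88999, 93317 and 90932 counts, near equal numbers from libraries of unequal depth. The median member had a TPM of 4.56, 2.12 and 4.31 (3.66 ± 1.34, SD, n = 3). The same median was 8.79 ± 2.23 for 10194 protein-coding genes and 3.46 ± 1.40 for 308 lincRNA genes that passed the same minimum. Member levels spread from a mean TPM of 0.31 to 111, with quartiles at 1.97 and 7.16, and 419 members were at 1 TPM or more in each library, 108 at 5 or more and 40 at 10 or more. The 5 members with most counts held 17.3, 14.8 and 16.4% of the members' counts. Since the count minimum chose the members, these levels are a description. In bulk RNA, fewer cells with a transcript and less of it per cell cannot be told apart.

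Structurally the members are short in exons. The most exons in any transcript was 1 for 51 members and at most 2 for 50.5% of them, against 60.4% of lincRNA and 4.36% of protein-coding genes. Exonic length had a median of 2071 bases and ran from 364 to 52997. The canonical polyadenylation signal AATAAA stood in the last 50 bases of 299 of the 921 transcript models (32.5%), against 40.5% of 32957 protein-coding models. Members lie on 20 chromosomes, with 40 on chromosome 1, 13 on chromosome 18, 5 on X and none on Y.

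Just inside the minimum were 2010310C07Rik with 25, 37 and 20 counts, Gm12195 with 23, 25 and 20, and Gm13919 with 22, 20 and 21. Just outside were Gm26716 with 19.97, 39.98 and 29.41, Gm16897 with 19.48, 65.97 and 49.28, and 4930524O07Rik with 25.26, 19.24 and 29.77. The values on either side of the minimum were close.

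**Figure D1:**
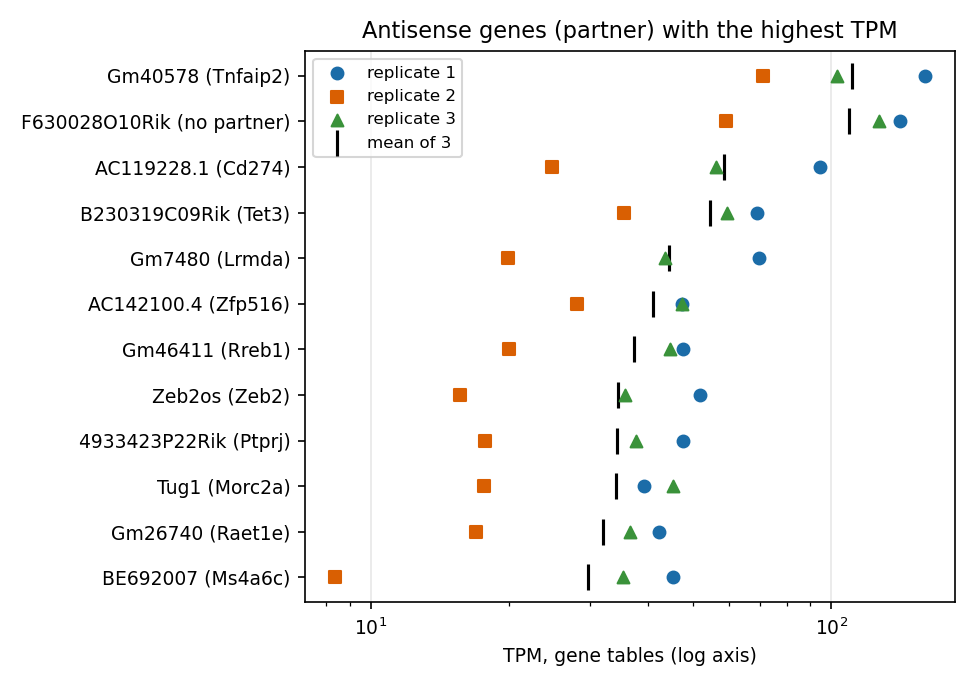
TPM of the 12 antisense genes with the highest mean, one row per gene with its opposite-strand partner in parentheses, on a log axis. Circles, squares and triangles are replicates 1, 2 and 3 and the bar is their mean. By TPM replicate 2 is lowest in every row (in TMM-scaled CPM, replicate 3 is lowest for Gm40578, B230319C09Rik and AC142100.4), and Gm40578 and F630028O10Rik stand above the rest in each library.

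Gm40578 had the highest mean TPM. It lies at chr12:111450405-111500840 on the minus strand (GRCm38/mm10) and overlaps the 3' end of Tnfaip2, a gene named for its induction by tumour necrosis factor. Its TPM was 159.8, 70.9 and 103 in replicates 1, 2 and 3 (111 ± 45.05, SD, n = 3). Tnfaip2 was at 968, 295 and 443, above Gm40578 in each library. In TMM-scaled CPM Gm40578 was at 125, 87.8 and 71.6 and Tnfaip2 at 932, 892 and 639, so both were highest in replicate 1 and lowest in replicate 3, whereas by TPM both were lowest in replicate 2. Exons of both strands share 29.4% of the Gm40578 exon bases, and its counts were not whole numbers.

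F630028O10Rik, the miR-223 host at chrX:96239926-96243636 on the plus strand (GRCm38/mm10), had the most counts of any member, 5413, 5174 and 5492. Its TPM was 141, 59.2 and 127 (109 ± 43.8, SD, n = 3). No gene is annotated on the opposite strand over its span, and all its counts were whole. In TMM-scaled CPM it was 434, 298 and 362, again highest in replicate 1 and lowest in replicate 2.

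AC119228.1 lies within Cd274, the gene of the immune checkpoint ligand PD-L1, at chr19:29373417-29384471 on the minus strand (GRCm38/mm10). It had 4382, 2543 and 3148 counts and a TPM of 94.3, 24.8 and 56.1. Cd274 itself was at 68.2, 25.9 and 54.4, so AC119228.1 was above it in replicates 1 and 3 and below it in replicate 2. 10.8% of its exon bases are shared with Cd274 exons. B230319C09Rik lies within Tet3, which encodes a dioxygenase that oxidises 5-methylcytosine, at chr6:83441755-83448322 on the plus strand (GRCm38/mm10), and shares no exon base with it. Its TPM was 68.8, 35.4 and 59.4 and that of Tet3 was 96.2, 91.6 and 118, so the antisense gene was below Tet3 in each library. Gm7480, one of 3 members within Lrmda, was at 69.8, 19.9 and 43.5, against 60.05, 38.9 and 57.9 for Lrmda, and the order of the pair changed between libraries.

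AC142100.4, within the zinc finger gene Zfp516, was at 47.4, 28.01 and 47.4, above Zfp516 at 20.2, 12.4 and 18.6 in each library. Gm46411, within the Ras-responsive transcription factor gene Rreb1, was at 47.6, 19.9 and 44.6, below Rreb1 at 58.7, 45.6 and 71.7. 4933423P22Rik, within the receptor phosphatase gene Ptprj, was at 47.5, 17.7 and 37.7, against 30.3, 21.3 and 30.6 for Ptprj. The last pair changed order between libraries, while the first 2 pairs did not. The last 2 pairs overlapped in range. None of these 3 members shares an exon base with its partner, and their counts were whole.

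Tug1 is a long non-coding RNA that starts within 1 kb of Morc2a, a gene for a chromatin-associated ATPase, at chr11:3639785-3649673 on the minus strand (GRCm38/mm10). It had 2391, 2393 and 3036 counts and a TPM of 39.3, 17.6 and 45.4, against 29.1, 30.6 and 36.9 for Morc2a. Tug1 was above Morc2a in replicates 1 and 3 and below it in replicate 2. Gm26740, whose span lies in that of Raet1e, a gene for a ligand of the receptor NKG2D, was at 42.1, 16.96 and 36.5, while Raet1e was at 1.11, 0.52 and 0.86. That difference was larger than the spread between libraries of either gene. BE692007 overlaps the 3' end of Ms4a6c, a membrane-spanning protein gene, and was at 45.3, 8.35 and 35.2, below Ms4a6c at 86.7, 27.4 and 69.1. It was lowest in replicate 2, as was Ms4a6c, by TPM and by CPM.

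By counts rather than TPM, 5 more genes were among the 12 highest. Gm26811, at the 3' end of the semaphorin receptor gene Plxna1, had 1193, 2010 and 1483 counts. Gm16185, within the mitochondrial carrier gene Slc25a36, had 1530, 1237 and 1474. Gm45606, at the 5' end of the amino acid transporter gene Slc43a2, had 939, 1628 and 1328. A930001M01Rik, within Tbc1d22a, had 1086, 1449 and 1098, and 2900089D17Rik, at the 5' end of Bri3, had 974, 1268 and 1205. Their mean TPM ran from 15.6 for Gm26811 to 28.4 for 2900089D17Rik.

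By the annotation, 514 of the 529 members (97.2%) overlap a protein-coding gene on the opposite strand, against 353 of 1608 (22.0%) other non-coding genes that passed the count minimum, an overlap that the antisense class itself asks for. With 1 more paired by its start within 5 kb, 515 members had a partner, the opposite-strand protein-coding gene with the longest overlap. These were 482 distinct genes, 28 of them shared by several members; Arhgap10 had 4. 302 members (57.1%) lie within the partner, 112 (21.2%) overlap it at the 3' ends, 42 start within 1 kb of its start, 40 overlap it at the 5' ends and 19 contain it. Positions are relative to this partner alone, and 75 members overlap more than 1 opposite-strand protein-coding gene. Median TPM in replicates 1, 2 and 3 was 5.36, 2.74 and 4.995 for members within the partner, 4.08, 1.92 and 4.10 for those at the 3' ends and 2.24, 1.20 and 2.58 for those with a shared start region. Members within a partner were the highest of these 3 classes in each library.

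Whole counts were less frequent among members whose exons overlap exons of the opposite strand. A gene whose reads all belong to it alone has whole expected counts. Counts were whole in each library, to within 0.005, for 170 of 179 members (94.97%) whose exons share no base with opposite-strand protein-coding exons. The share was 64 of 108 (59.3%) where up to 10% of exon bases are shared, 32 of 204 (15.7%) where over 10 to 50% are, and 0 of 38 above 50%. Among all 529 members it was 266 (50.3%), against 70.6% of the 12865 annotated genes that passed the minimum. The order was the same without the 22 members that share exon bases with another gene of their own strand, at 96.0, 60.2, 15.5 and 0%. The quantifier's own posterior SD followed it, with medians of 0, 0, 1.33 and 8.60% of the count. Whether counting used strand is not given in the sources used here, so reads from a member and from its partner cannot be told apart where exons overlap, nor can a member's exon within a partner's intron be told apart from unspliced partner RNA.

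**Figure D2:**
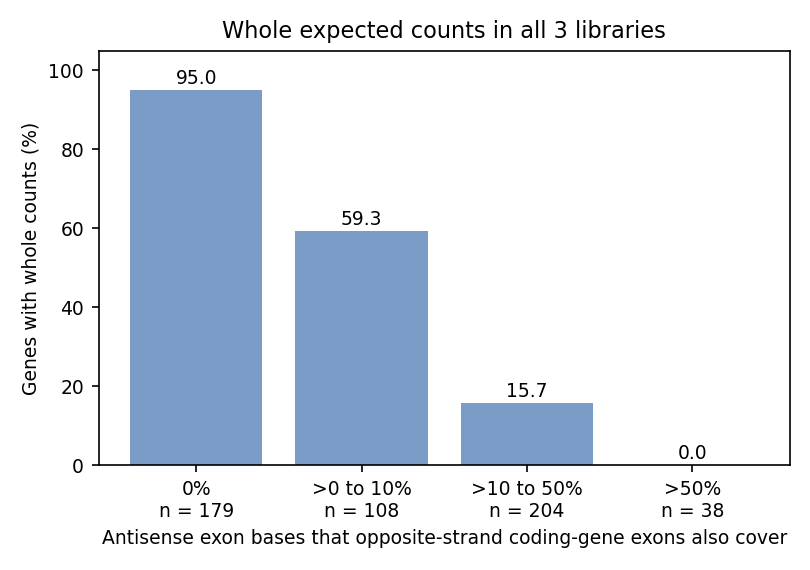
Share of antisense genes with whole expected counts in all 3 libraries (vertical axis, percent), by the share of their exon bases that opposite-strand protein-coding exons also cover (horizontal axis, with the number of genes). The share drops from 94.97% with no shared base to 0% of 38 genes above 50%.

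14 members have no protein-coding partner, and for 12 of these no gene of any class is annotated on the opposite strand. Apart from F630028O10Rik, the highest of the 12 were Gm15445, at 23.2, 10.8 and 21.6 TPM, Gm15859, at 19.2, 10.9 and 19.8, and 4930430E12Rik, at 22.4, 8.06 and 18.4. The other 8 had mean TPM between 0.557 and 5.38. Counts were whole for 12 of the 14, as for members with a partner and no shared exons. Median TPM of the 14 was 4.72, 2.31 and 4.04, near that of all members.

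Most members were below their partner. 406 of 515 (78.8%) had a lower TPM than the partner in each library, 46 changed sides between libraries and 63 (12.2%) were higher in each. Among other non-coding genes with an opposite-strand protein-coding gene, 16.7% of 353 were higher in each library. Of the 165 members with a partner and no shared exon base, 21 (12.7%) were above it, and of the 350 with shared bases, 42 (12%), so the 2 shares were close. The median partner TPM was 3.55, 4.86 and 4.31 times the member's (4.24 ± 0.66, SD, n = 3). 88 members were 10-fold or more below in each library, a count not made for other non-coding genes. Across the 515 pairs, member and partner TPM had a Spearman correlation of 0.441, 0.462 and 0.439, and across the 165 pairs with no shared exons 0.534, 0.508 and 0.519. These describe genes within a library, which are not independent replicates, and the pairs share a library and a locus.

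**Figure D3:**
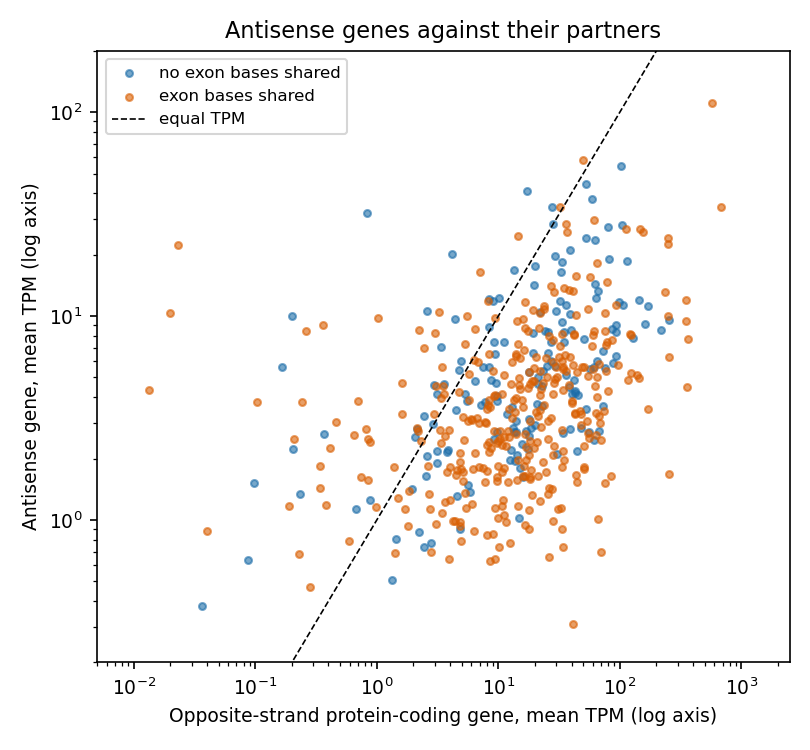
Mean TPM of each antisense gene (vertical, log axis) against its opposite-strand protein-coding partner (horizontal, log axis), with pairs that share no exon base in blue and pairs that share some in orange; 7 pairs with a partner at 0 are left out. Most points lie below the dashed line of equal TPM, 406 of 515 pairs in every library.

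Members that stood highest over their partner had partners at or near 0. Gm17056 starts within 1 kb of Lsmem1 and was at 42.8, 10.3 and 14.04, while Lsmem1 was listed at 0, 0 and 0.07. Gm26642 contains Elf3, an epithelial transcription factor gene, and was at 12.4, 6.06 and 12.5, while Elf3 was at 0, 0.02 and 0.04. 1700019L13Rik lies within Cx3cr1, the fractalkine receptor gene of monocytes, and was at 4.75, 3.32 and 4.92, while Cx3cr1 was at 0, 0.02 and 0.02. In these 3 pairs the antisense gene was above its partner in each library, and the values of the pair did not overlap. Gm10863, which starts beside Sox10, a neural crest factor gene, was at 6.59, 3.73 and 6.48, against 0.32, 0.1 and 0.08. Gm38134, Gm27177 and Gm26873, opposite Gm20662, Loxl2 and Lix1, were the others of the 8 highest with Gm26740, at mean TPM of 9.98, 8.42 and 3.79. For 7 further members, opposite Gm49354, Ms4a12, Gm42416, Atp5o, Icam4, Gm27027 and Kremen2, the partner was listed at 0 in each library. These 7 have no finite ratio to the partner and were not ranked among the 8.

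Members that stood lowest were opposite expressed genes. E530011L22Rik, at the 3' end of Nktr, was at 2.09, 0.92 and 2.02, against 286, 174 and 296 for Nktr, and shares 43.4% of its exon bases with it. AC165962.1, Gm37305 and 4930513N10Rik, which start beside Btbd9, the cyclin L1 gene Ccnl1 and the deadenylase scaffold gene Cnot1, were at mean TPM of 0.31, 4.50 and 0.693, against 41.5, 354 and 69.4 for the partners. 3 of these 4 pairs start within 1 kb of each other.

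14 members lie opposite a gene of 7 lists (261 genes: immediate early genes, NF-kB and TLR4 pathways, cytokines and chemokines, interferon response, macrophage identity, chromatin and RNA machinery). The 13 partners are 4.98% of the list genes, which were not chosen by the count minimum. Partners were 2.19% of all 22028 protein-coding genes and 4.28% of those that passed the minimum. By gene-level TPM of the first quantification, none of the 14 was above its partner in each library. By list, members were opposite 5 of 44 chromatin and RNA genes, 3 of 36 macrophage identity genes, 3 of 28 NF-kB genes, 1 of 36 TLR4 pathway genes, 1 of 40 interferon genes and 0 of 43 immediate early and 0 of 34 cytokine genes.

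**Figure D4:**
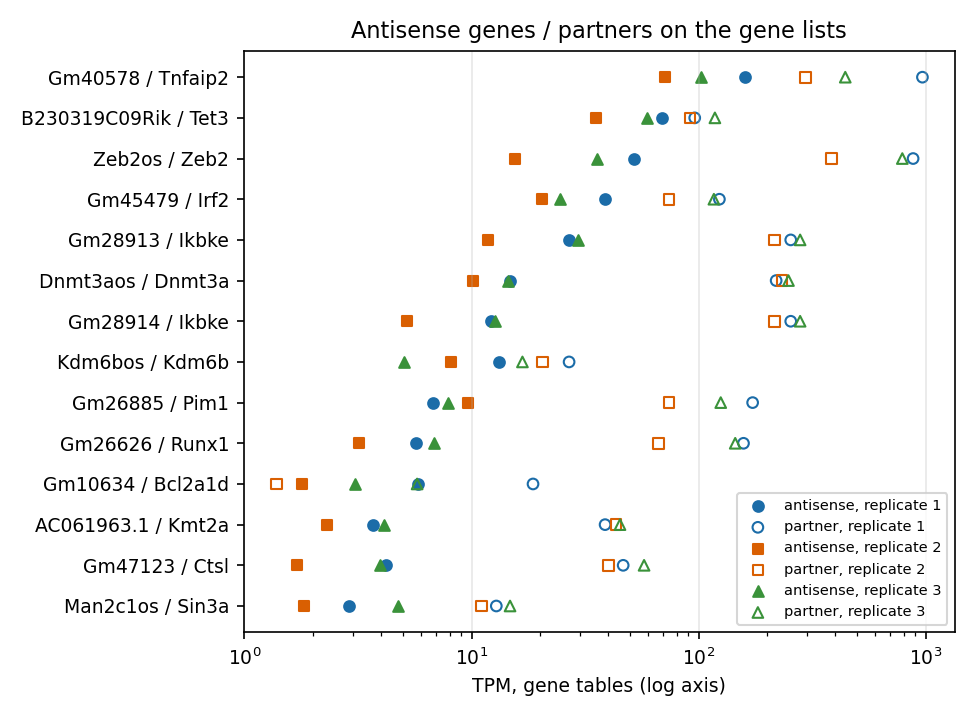
TPM in replicates 1 (circle), 2 (square) and 3 (triangle) of the 14 antisense genes opposite a listed gene (filled) and of that gene (open), on a log axis. Filled symbols lie left of the open ones of the same replicate except for Gm10634 and Bcl2a1d in replicate 2.

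Opposite macrophage identity genes, Zeb2os lies within Zeb2, a transcription factor gene of the lineage, and was at 51.9, 15.6 and 35.6 TPM, against 881, 384 and 789 for Zeb2. Gm26626, within the transcription factor gene Runx1, was at 5.71, 3.19 and 6.83, against 158, 66.5 and 145. Gm47123, within Ctsl, the cathepsin L gene, was at 4.21, 1.70 and 3.96, against 46.5, 40.2 and 57.5. All exon bases of Gm47123 are also Ctsl exon bases. The second quantification described below put Gm47123 at 0 and Zeb2os at a mean of 485 TPM, against 34.4 in the first.

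Opposite signalling genes, Gm28913 and Gm28914 both lie within Ikbke, which encodes the kinase IKK epsilon. Gm28913 was at 26.8, 11.8 and 29.4 and Gm28914 at 12.2, 5.19 and 12.7, against 255, 216 and 280 for Ikbke. Gm26885, at the 5' end of Pim1, was at 6.80, 9.64 and 7.84, against 173, 73.96 and 125. In TMM-scaled CPM it was at 23.8, 55.9 and 25.7, against 168, 121 and 131 for Pim1. It was highest in replicate 2 on both scales, and Pim1 was lowest there. Of the 14, Dnmt3aos was also highest in replicate 2 by CPM, at 19, 21.2 and 17.1, but not by TPM. Gm10634, which contains Bcl2a1d, a survival gene of the Bcl2 family, was at 5.83, 1.79 and 3.07, against 18.7, 1.38 and 5.76. Bcl2a1d has near-identical copies, and how reads were divided among them was not tested. Gm45479, within the interferon regulatory factor gene Irf2, was at 38.6, 20.5 and 24.6, against 124, 74.2 and 117. It shares no exon base with Irf2.

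Opposite chromatin genes, Kdm6bos lies within Kdm6b, the H3K27 demethylase gene, at chr11:69401513-69402700 on the plus strand (GRCm38/mm10). It was at 13.2, 8.13 and 5.04 TPM, against 26.9, 20.6 and 16.8 for Kdm6b, and both were highest in replicate 1 and lowest in replicate 3 by TPM. In TMM-scaled CPM both were again lowest in replicate 3, and Kdm6b, at 97.4, 128 and 75.9, was highest in replicate 2. Dnmt3aos, within the DNA methyltransferase gene Dnmt3a, was at 14.8, 10.2 and 14.6, against 219.6, 233 and 249. AC061963.1, at the 5' end of the H3K4 methyltransferase gene Kmt2a, was at 3.67, 2.30 and 4.12, against 38.8, 43.3 and 45.1, and Man2c1os, at the 3' end of the corepressor gene Sin3a, was at 2.89, 1.83 and 4.75, against 12.9, 11.1 and 14.8. All were below their partner in each library.

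25 further antisense genes opposite listed genes did not reach the minimum. Il1bos, opposite the interleukin 1 beta gene Il1b, had 21, 7 and 5 counts, while Il1b was at 234, 26.7 and 43.7 TPM. Junos, beside the AP-1 gene Jun, had 14.04, 17.2 and 22.1 counts, and Ptgs2os, beside the prostaglandin synthase gene Ptgs2, had 3, 2 and 2. Gm42567, beside the dioxygenase gene Tet2, had 0 in each library. These 4 were named after their values were seen.

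5 members hold a mature microRNA. Besides F630028O10Rik, 4921516A02Rik holds miR-6410 in an exon, Gm17494 holds both strands of miR-760 in exons, Gm47079 holds miR-1900 in an exon and Tmcc3os holds miR-7211-5p in an intron. Their gene TPM was far below that of F630028O10Rik, at 4.12, 1.94 and 3.44 for 4921516A02Rik, 1.23, 0.53 and 1.90 for Gm17494 and 4.70, 2.47 and 3.64 for Tmcc3os. Gm47079 was at 4.56, 0.28 and 0.88. Its exons share 1110 bases with Icam4, at 0 TPM in each library, 511 with Icam1 and 116 with Icam5, at 0.03, 0.05 and 0.07. Icam1, an adhesion gene of the inflammatory response, was at 88.0, 13.5 and 25.7 TPM. Gm47079 and Icam1 were both highest in replicate 1 and lowest in replicate 2 by TPM. On that scale 56.7% of members were highest in replicate 1 and 1.89% in replicate 2. The share of members with this whole order was not counted. The miR-223 seeds above are not shared by any of these. 4 members hold small nucleolar or small nuclear RNAs, all listed at 0 in the gene tables. The sample labels give a size range for the libraries, and whether RNAs this small could be captured was not tested. Zfas1, the best known of them, was itself at 26.2, 18.3 and 32.7 TPM, beside Znfx1 at 38.9, 27.3 and 44.9.

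Where a member has several annotated transcripts (209 genes; 320 have 1), a single isoform usually led. The median share of the leading isoform was 78.0, 76.9 and 76.4% of the gene's level (77.1 ± 0.81%, SD, n = 3). The leader was the same in all 3 libraries for 169 of the 209 (80.9%), and the same was not counted for other genes. In the second quantification the median was 64.7 ± 0.58%, and 171 genes kept 1 leader over the libraries, but only 107 had the same leader in all libraries of both quantifications. Of the 921 transcripts, 432 were at 1 TPM or more in each library and 149 were listed at 0 in each, and the second quantification gave 585 and 86.

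The 2 quantifications differed in level and in rank. The second put 158 members (29.9%) at 2-fold or more higher TPM in each library, against 20.2% of the 12865 annotated genes that passed the minimum. It put 2 at 2-fold or more lower, Gm20659 within Dusp3 and Gm47123, both at 0, against 0.466% of all. Both have every exon base covered by partner exons. The median ratio was 1.64 for members and 1.60 for protein-coding genes, so the shift was not particular to antisense genes. Relative to the protein-coding median, 61 members passed 2-fold, a count not made for other genes. Spearman correlation across members was 0.816, 0.812 and 0.791 in the 3 libraries.

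The highest ratios belonged to genes at low gene-table levels and to Zeb2os. Zeb2os was at 826, 168 and 462 TPM in the second quantification, against 51.9, 15.6 and 35.6. Gm47578, which contains Csl, was at 50.2, 48.2 and 56.8, against 0.26, 0.37 and 0.51. Gm47738, within the helicase gene Mcm9, was at 123, 50 and 92.5, against 2.13, 0.68 and 2.07. Neither Gm47578 nor Gm47738 shares exon bases with its partner. Gm48754, Gm15614 and Gm16121, opposite Rala, Yes1 and Mad1l1, were 22.7-, 15.1- and 13.8-fold higher by their means. At the low end, above the 2 genes at 0, Gm20687 had a ratio of 0.679, Gm43579 0.653, Gm17344 0.759 and Gm15512 0.796.

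Between libraries, members varied about as much as other genes on the log2(CPM + 1) scale. The SD over the 3 libraries had a median of 0.27 for members, 0.26 for protein-coding and 0.28 for lincRNA genes. 44 members (8.32%) had an SD above the 90th percentile of protein-coding genes. Median TMM-scaled CPM was 5.36, 21.4 and 6.86 in the same order, and adding 1 lowers the SD more at low CPM. With 0.1 added to the CPM in place of 1, the member median was 0.314, and the other classes were not computed on that scale. The likeness is therefore stated for 1 added only. The direction differed. 305 members (57.7%) were highest in replicate 1, as were 64.6% of lincRNA but 31.7% of protein-coding genes, which were most often highest in replicate 2 (47.1%, members 19.7%). With DESeq2 size factors the shares highest in replicate 1 were 56.1, 61.7 and 30.1%. By TPM as deposited they were 56.7, 53.3 and 33.5%. Replicate 2 was then highest for 1.89% of members, 1.95% of lincRNA and 3.41% of protein-coding genes, and protein-coding genes were most often highest in replicate 3 (63.1%, members 41.4%), so their lead in replicate 2 holds for TMM and DESeq2 scaling only. Relative to each gene's mean over the 3 libraries, the median member deviated by 0.14, -0.14 and -0.02 on the log2 scale in replicates 1 to 3. The starting RNA, 1 µg, 250 ng and 500 ng in the same order, and the depth differ between these libraries as well, and their part in this was not tested. The count minimum also weighs unequally on the libraries. 3 counts stand for 0.241, 0.173 and 0.198 CPM in replicates 1 to 3, so a fixed count asks for the highest CPM in replicate 1. Median counts were 79.4 for members, 101 for lincRNA and 323 for protein-coding genes. The part of the minimum in these shares was not tested.

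**Figure D5:**
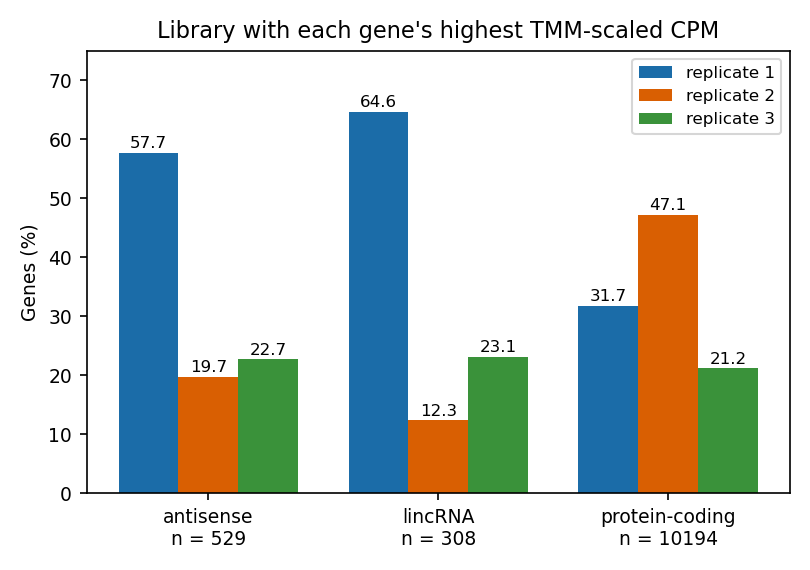
Percent of genes (vertical axis) with their highest TMM-scaled CPM in replicate 1, 2 or 3, for the antisense members, lincRNA genes and protein-coding genes that passed the count minimum. Replicate 1 leads for antisense (57.7%) and lincRNA genes (64.6%), replicate 2 for protein-coding genes (47.1%), which by deposited TPM are most often highest in replicate 3 (63.1%). The count minimum stands for a higher CPM in replicate 1 than in the other libraries.

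Among 313 members with 50 or more counts in each library, the 8 with the largest SD were led by E430024P14Rik, which contains Tagap, a GTPase-activating protein gene of immune cells. It had 27.6, 5.02 and 7.44 CPM in replicates 1 to 3, and Tagap had 19.2, 7.26 and 8.56. Gm16712, at the 3' end of the cytokine subunit gene Ebi3, had 21.97, 5.36 and 13.6, and Ebi3 had 4.17, 1.79 and 2.04. Gm20234, at the 3' end of the schlafen gene Slfn2, had 19.2, 7.21 and 7.05, and Slfn2 had 209.9, 84.3 and 118. In these 3 pairs, and in BE692007 and Ms4a6c, both genes were highest in replicate 1 and at their lowest in replicate 2 or, for Gm20234, in replicate 3. These pairs were picked by the member's SD. Over all 515 pairs, member and partner had the same highest library in 204 (39.6%).

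The other 4 of the 8 had partners with a flatter profile or almost no signal. Gt(ROSA)26Sor, the non-coding gene of the Rosa26 locus used for transgene insertion, had 16.2, 4.50 and 7.77 CPM, while its partner Thumpd3 had 39.8, 35.2 and 40.6. Gm29083, within the semaphorin co-receptor gene Nrp2, had 12.6, 4.32 and 5.01, while Nrp2 had 364, 438 and 367. Gm17056 had 97.7, 38.9 and 29.8, with Lsmem1 at or near 0. 4732440D04Rik, within the autophagy gene Rb1cc1, had 25.7, 9.57 and 25.6, low in replicate 2 alone. All 8 were highest in replicate 1, 4732440D04Rik by a margin smaller than 1 CPM over replicate 3.

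The 4 with the smallest SD were Gm38336 with 9.22, 8.76 and 8.96 CPM, 6430562O15Rik with 5.29, 5.65 and 5.34, Gm45285 with 5.69, 6.11 and 5.73 and Gm17029 with 11.6, 10.8 and 11.3. Gm45285 lies within Arhgap10, which had 188, 387 and 216, so the partner varied more than the antisense gene. Across all 515 pairs, the log2 difference of replicate 1 from the mean of the others had a Spearman correlation of 0.335 between member and partner. It was 0.315 over the 165 pairs with no shared exon bases and 0.334 over the 350 with some, so it was of like size in both, and pairs share the library they were measured in.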

How the data were processed

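Total RNA-seq of chromatin-fraction RNA was measured in 3 libraries of 1 group. The deposited gene tables give, per the file headers, an expected count, a TPM and a posterior SD of the count for each gene on mm10 with annotation M21, and the first deposited transcript tables give expected count, TPM and isoform percent. A second deposited quantification gives estimated counts and TPM per transcript, which were summed per gene here. Which aligner, counter and strand setting were used is not given in the sources used here. Signal tracks were not used.

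Members were genes with a transcript of class antisense and an expected count of 20 or more in each library. The members and gene lists were chosen with earlier results of these data known. Partners, overlaps and positions came from the GENCODE M21 annotation (Python 3.11.15, pandas 2.3.3, numpy 2.4.6). Of the members' symbols, 214 matched the RefSeq promoter table, and a window was used within 100 bases of an annotated start. Counts were rounded to whole numbers only for scaling with TMM (edgeR 4.0.16) or, as an alternative, size factors (DESeq2 1.42.0), both in R 4.3.3. SDs between libraries are of log2(CPM + 1). With 1 group no test between groups was possible, and none was run. The SD ranking and the overlap code were tested on simulated data.

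Named members were chosen by rule: the 12 highest by mean TPM and by mean count, the 8 largest and 4 smallest SDs among members with 50 or more counts in each library, those opposite a listed gene, the 6 highest and 6 lowest ratios of the quantifications, 3 on either side of the minimum, and the 8 highest and 4 lowest relative to the partner. Members holding small RNAs, those with no opposite-strand gene, those with partners at 0 and antisense genes below the minimum were named after their values were seen. A count of 0 allows up to 0.241, 0.173 and 0.198 CPM in replicates 1 to 3 (3 counts), for counting error only.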

Additional observations from a re-analysis of the deposited data

How the results depend on the processing

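Across 57 alternatives for 10 results, 38 stayed within 1.5-fold (counts and the median SD) or within 1 SD of the libraries (other values), and 19 moved further. Reversals of direction were not assessed. The number of antisense genes passing, 529, was 905 with a minimum of 5 counts, 313 with 50 and 1324 by the second quantification, and 548 to 568 leaving out 1 library. Median TPM, 3.66, was 2.21 with a minimum of 5, 5.01 with 50 and 6.97 in the second quantification, and 3.02 to 4.15 leaving out 1 library. The share of counts was 0.944% of the protein-coding counts and 0.544 to 0.739% leaving out 1 library. Members 2-fold higher in the second quantification, 158, were 42 at 4-fold, 61 relative to the protein-coding median, and 174 to 196 leaving out 1 library; those 2-fold lower, 2, were 2 to 7, with 7 without replicate 1 and 4 without replicate 3. The leading isoform's share, 77.1%, was 90.3% by expected counts, 64.7% in the second quantification and 75.8 to 77.8% leaving out 1 library. Members above the partner, 63 of 515, were 34 of 350 with the partner set by exon overlap, which only members with shared exon bases have. They were 68 to 83 leaving out 1 library. The median SD, 0.266, was 0.435 on TPM, 0.314 with 0.1 added to the CPM in place of 1, 0.165 over all 1769 antisense genes with a count, and 0.180 to 0.272 leaving out 1 library. Among members sharing no exon base, a choice made after seeing the data, 56 were 2-fold higher in the second quantification and 21 were above the partner. Fewer genes enter this choice, the partner by exon overlap and the stricter choices. Leaving out 1 library also leaves fewer libraries that must pass. For the other moves the cause was not tested. Overlap with an opposite-strand gene, 514, was 350 by overlap of exons and 532 to 553 leaving out 1 library. CpG-rich windows, 61, were 43 with stricter CpG and GC limits and 64 to 65 leaving out 1 library. Both results kept within 1.5-fold under each alternative run. No paired analysis was possible because all libraries form 1 group. Depth limits members near 20 counts, where a few reads decide membership.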
